A study of Homo sapiens with 5 samples.

Results

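Genomic regions at which ZBTB7A was called in androgen-depleted VCaP cells given vehicle, and at which no peak was called with DHT or in full serum, are described here. They were obtained by merging all overlapping peaks (at least 1 bp) of the 3 peak lists on chromosomes 1 to 22 and X, and by keeping the merged regions that held a vehicle peak and none from the other lists. This gave 10990 regions of 148985 (7.38%), or 31.3% (exact 95% interval 30.9 to 31.8%) of the 35072 regions with a vehicle peak. The groups are DHT (cells in 5% hormone-depleted serum given 10 nM dihydrotestosterone for 4 hours, 2 libraries), FBS (cells in 10% full serum, 1 library) and CSS (cells in 5% hormone-depleted serum given vehicle for 4 hours, 2 libraries). Each group is 1 deposited peak list of ZBTB7A chromatin immunoprecipitation and sequencing (ChIP-seq), so membership itself rests on 1 list per condition, no spread between libraries can be given, and no p-value is printed. One treatment protocol is recorded for all 5 libraries, so that FBS received no added DHT is read from its culture label and from the design. VCaP is an established prostate cancer cell line that expresses the androgen receptor, and all libraries are of this single line.

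ZBTB7A, also called LRF or Pokemon, is a transcription factor with a BTB domain, through which it pairs with itself and meets corepressors, and with zinc fingers that read C- and G-rich DNA. It is best known as a repressor, for instance of fetal globin genes in red cells, and it has been studied in prostate cancer as a factor whose loss changes tumour growth. DHT is the main androgen of the prostate; it binds the androgen receptor, which then moves to the nucleus and occupies its own sites. Hormone-depleted serum removes most of that ligand, so vehicle-treated cells in it are the low-androgen state. Positions are on hg19, as in the lists, with a first base of 1; the genome and gene annotation of that build were not used here, so regions are given by position, without gene names or sequence.

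The deposited fold enrichment and p-value of a peak could be turned back into fragments. For each of the 33236 DHT, 123651 FBS and 36674 CSS peaks on these chromosomes, exactly 1 whole number of overlapping fragments (the pileup at the summit) and 1 background reproduced both values under the peak caller's formulas. The lowest background in a list, the genome-wide level, was 0.192 fragments in DHT, 1.29 in FBS and 0.255 in CSS. Divided by the fragment length, these levels put read density at 0.726 times that of CSS in DHT and at 4.51 times in FBS, if the same genome size was used for each list. A peak with a pileup of 3 was enough for a call in DHT and in CSS, and 6 in FBS. Where the background was above the genome-wide level, it equalled a whole number of reads in a window of 10 kb in 100% of peaks of each list.

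The regions called with vehicle alone had few fragments at their summits. They had a median pileup of 6 fragments (quartiles 5 and 8), against a median of 9 (7 and 13) in the other regions with a CSS peak. The median CSS −log10 q was 3.70 in the vehicle-only regions and 6.16 in the others, and the median CSS fold enrichment was 4.78 and 6.17. The members were chosen by the CSS, DHT and FBS peak calls, which rest on these same values, so they are given as a description. Each vehicle-only region held 1 CSS peak. Its median width was 192 bp, and 5692 of the 10990 (51.8%) were within 2 bp of the narrowest width in the list, 191 bp. Among CSS peaks in regions shared with DHT alone, with FBS alone and with both, 14.04%, 32.5% and 10.8% were that narrow. In DHT-only regions the median width was 199 bp, and 52.9% were within 2 bp of the narrowest width in their own list, 198 bp.

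The same values recurred from region to region. At the genome-wide background, 1706 vehicle-only regions had a pileup of 5 and so the same fold enrichment (4.78) and −log10 q (3.70), 1185 had a pileup of 4 and 487 a pileup of 6. In all, 3763 (34.2%) of the vehicle-only regions lay at the genome-wide background, against 13.7% of the other CSS regions. In the DHT list, 20.4% of DHT-only regions lay at its genome-wide background, against 6.90% of the other DHT regions. The lowest −log10 q in the CSS list, 1.33, was shared by 27 vehicle-only regions and by 35 CSS regions in all. The first of these by position are on chromosome 1 at 40105199 to 40105389, 225227657 to 225227871 and 247511172 to 247511362, each with a pileup of 3.

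**Figure D1:**
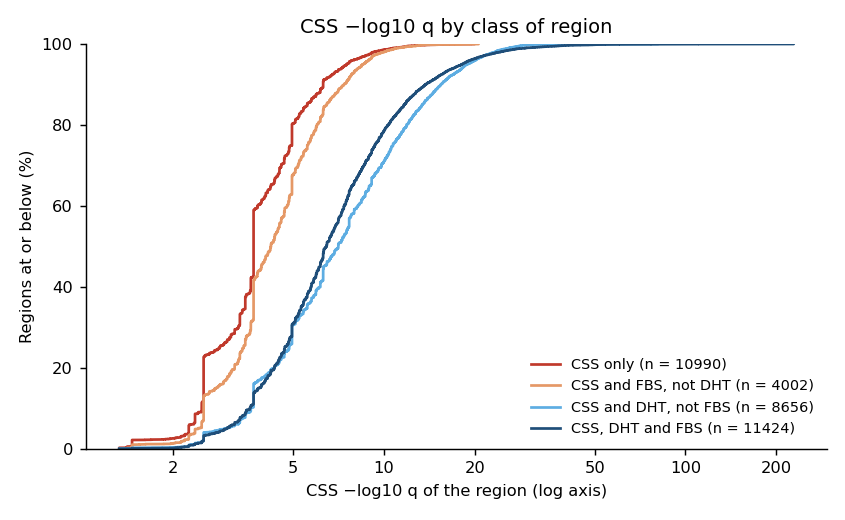
Cumulative share of regions (y axis, %) by the CSS −log10 q of the region (x axis, log scale), 1 line for each combination of lists that called the region. The vehicle-only line lies to the left of the others, with a median of 3.70, and its steps are regions that share 1 pileup at the genome-wide background.

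The share of CSS regions called with vehicle alone was lower at higher pileups. At a pileup of 4, 68.4% (66.7 to 70.2%) of CSS regions were called with vehicle alone. At 5 the share was 60.4% (59.0 to 61.7%), at 8 it was 24.1% (22.7 to 25.6%), and at 15 or more it was 6.49% (5.80 to 7.23%). With the background held at the genome-wide level, the shares were 68.2% at a pileup of 4, 60.9% at 5 and 13.1% (9.51 to 17.4%) at 8, and 0 of 21 regions with a pileup of 11 were vehicle-only, which allows a share of up to 16.1%. In the DHT list, 55.5% of DHT regions with a pileup of 4, 50.5% with 5, 16.1% with 8 and 2.06% with 15 or more were called with DHT alone. Because read density was lower in DHT, equal pileups in the 2 lists do not stand for equal enrichment, and the part of depth in these shares was not tested.

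**Figure D2:**
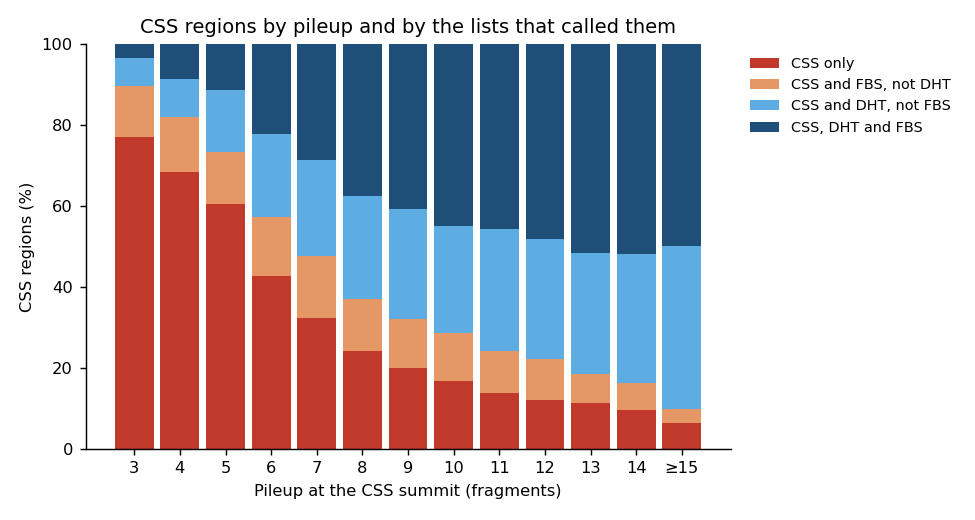
Regions with a CSS peak (y axis, %) by the pileup at the CSS summit (x axis, fragments), coloured by the lists that called them. The vehicle-only share is 68.4% at a pileup of 4 and 6.49% at 15 or more.

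By rank, vehicle-only regions had their median at percentile 27.4 of the CSS regions ordered by −log10 q, close to the place of DHT-only regions in the DHT list (30.2). They made up 66.7% of the weakest 10% of CSS regions and 2.0% (1.56 to 2.52%) of the strongest 10%. The share was lower at each step in between except for 1, with 51.2% in the second group of the ranking and 57.1% in the third. Regions with CSS and FBS peaks but none with DHT also had low ranks (median percentile 37.2), while those with CSS and DHT peaks but none in FBS ranked highest (70.2), above those called in every list (65.9).

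Some vehicle-only regions were nonetheless well above the calling limit. A CSS −log10 q of at least 5 was reached by 2162 of them (19.7%), against 49.5% of all CSS regions, and a −log10 q of at least 10 by 158 (1.44%), against 14.9%. A pileup of at least 10 was found in 1386 (12.6%), against 36.1%, and a fold enrichment of at least 5 in 4043 (36.8%), against 64.2%. In DHT-only regions, 134 of 7485 (1.79%) had a DHT −log10 q of at least 10. The 158 vehicle-only regions of that strength had pileups of 10 to 127 with a median of 14, and a median width of 265 bp. For 40 of them a DHT peak lay within 5 kb, for 62 an FBS peak, and for 84 neither. Only 4 vehicle-only regions were among the 1000 highest CSS regions.

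The strongest vehicle-only call was on chromosome 9 at 140288549 to 140289085. It had a −log10 q of 20.02, a fold enrichment of 9.88 and a pileup of 30, and ranked 770 among CSS regions. Its surrounding 10 kb held 112 reads, so the local background of 2.14 was well above the genome-wide level, and the nearest FBS peak was 2755 bp away. The next regions stood out from a sparser background. On chromosome 16 at 64106461 to 64106795 and on chromosome 6 at 152006243 to 152006499, the pileup was 19 with 27 reads in the surrounding 10 kb, which gave both the highest fold enrichment of any vehicle-only region, 13.2, and a −log10 q of 19.8. Their nearest DHT peaks were 273267 and 122975 bp away and their nearest FBS peaks 8944 and 8949 bp.

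On chromosome 16 at 73181334 to 73181597, a pileup of 15 was nearly all of the 16 reads in the 10 kb, with a fold enrichment of 12.3 and a −log10 q of 17.4. The region on chromosome 2 at 215583537 to 215583795 (pileup 17, −log10 q 16.9) had its nearest DHT peak 38149 bp away and its nearest FBS peak 34257 bp away, the most distant FBS neighbour among the 10 strongest. A further pair on chromosome 6, at 41572523 to 41572757 and at 108722328 to 108722564, both had a pileup of 18 and fold enrichments of 11.9 and 11.8. Each of these 4 regions was under 300 bp wide.

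The remaining 3 of the strongest 10 were on other chromosomes. On chromosome 4 at 705248 to 705503, the pileup was 23 among 54 reads and the −log10 q 19.4. On chromosome 13 at 112159772 to 112160108, the pileup was 24 among 72 reads and the −log10 q 17.9, with an FBS peak 1829 bp away. The region on chromosome X at 72299730 to 72300224 had a pileup of 17, a −log10 q of 16.7 and another vehicle-only region 11730 bp away. None of the 10 strongest had a DHT peak within 5 kb, the nearest being 7967 bp from the region at 41572523 on chromosome 6. Of all vehicle-only regions, only 15.3% had a DHT peak within 5 kb. The share was not lower among the 158 with a −log10 q of at least 10, at 25.3%.

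The widest vehicle-only regions were 960, 960 and 907 bp long and were not the strongest. The region on chromosome 2 at 233770514 to 233771473 had a −log10 q of 10.4 and a DHT peak only 70 bp from its edge. The one on chromosome 5 at 356691 to 357650 had a −log10 q of 8.0 and its nearest DHT peak at 12065 bp. The one on chromosome 7 at 149251546 to 149252452 had a −log10 q of 8.32, a DHT peak at 330 bp and an FBS peak at 435 bp.

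The next question was how far the vehicle-only regions lay from the calls of the other conditions. Most had no DHT peak close by. A DHT peak lay within 500 bp, without overlap, of 808 (7.35%, 6.87 to 7.86%) and within 5 kb of 1684 (15.3%, 14.7 to 16.0%), and the median distance was 25023 bp. In the opposite direction, 8.42% (7.80 to 9.07%) of DHT-only regions had a CSS peak within 500 bp and 16.6% (15.8 to 17.5%) within 5 kb. The difference at 500 bp, vehicle-only minus DHT-only, was -1.06 percentage points (Newcombe interval -1.87 to -0.276), so the share was lower for vehicle-only regions. The CSS list, against which DHT-only regions were set, is the longer one.

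An FBS peak, from a list several times longer, lay within 500 bp of 11.7% (11.1 to 12.4%) of vehicle-only regions and within 5 kb of 38.03% (37.1 to 38.9%). For DHT-only regions these shares were 12.4% and 39.3%, and the differences of -0.674 points (-1.64 to 0.279) and -1.24 points (-2.67 to 0.189) had intervals that included 0, while that within 10000 bp, -1.94 points (-3.38 to -0.492), did not. Regions called in every list were seldom near: 4.48% of vehicle-only and 3.86% of DHT-only regions had one within 5 kb. The shares with a neighbour differed with strength. At a −log10 q of 5 or more, 24.5% (22.7 to 26.3%) had a DHT peak within 5 kb, against 13.1% (12.4 to 13.8%) of the weaker ones, and 43.8% (41.7 to 45.9%) against 36.6% (35.6 to 37.6%) had an FBS peak. At a −log10 q of 10 or more, the shares were 25.3% (18.7 to 32.8%) for a DHT peak and 39.2% (31.6 to 47.3%) for an FBS peak, and the interval for FBS covers the share of the weaker regions.

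**Figure D3:**
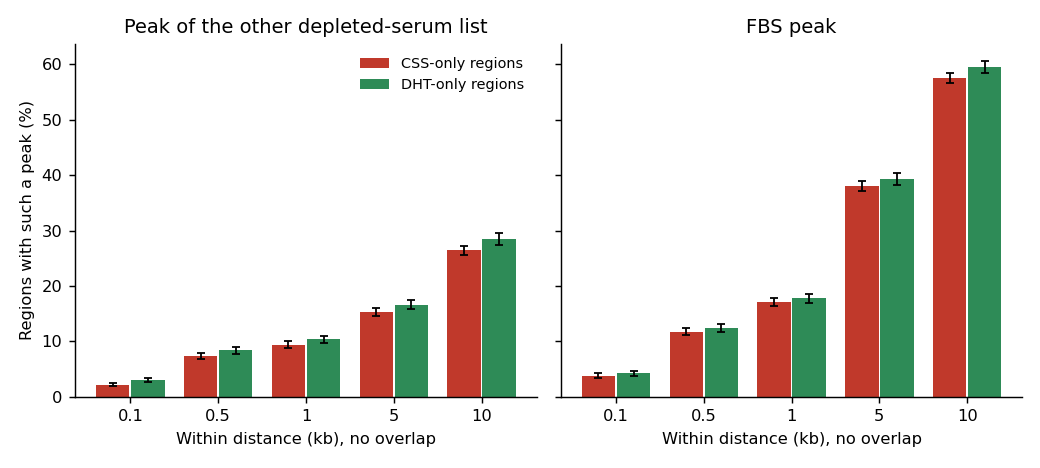
Share of regions (y axis, %, bars with exact 95% intervals) that have a non-overlapping peak within a distance (x axis, kb), for CSS-only regions left of DHT-only regions. The left panel counts DHT peaks for CSS-only regions and CSS peaks for DHT-only regions, the right panel FBS peaks; at 5 kb the pairs are 15.3 and 16.6%, and 38.03 and 39.3%.

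A few regions are members by a base or so. A DHT or FBS peak lay at most 10 bp from 85 vehicle-only regions and touched 10 of them with no base between, such as those on chromosome 12 at 4919001 to 4919282 (−log10 q 3.90) and on chromosome 14 at 99946758 to 99947195 (5.31). On the other side, 67 regions with 1 CSS peak and 1 peak of another list shared at most 10 bp, and those on chromosome 1 at 15284111 to 15284508 (1.41) and on chromosome 11 at 69518395 to 69519032 (2.29) shared 1 bp. Among the 158 strongest vehicle-only regions, the nearest to a DHT peak were on chromosome 2 at 135790899 to 135791644, 1 bp away, on chromosome 4 at 153787465 to 153787848, 60 bp away, and on chromosome 2 at 92313039 to 92313508, 62 bp away.

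The last of these belongs to a small set in stretches crowded with reads. It had a pileup of 117, but its 10 kb held 2462 reads, so that the background was 47.0 and the fold enrichment 2.46. A local background of at least 5 was found in 83 vehicle-only regions (0.755%, 0.602 to 0.935%), against 1.37% of regions shared with DHT alone, 0.675% (0.445 to 0.980%) of those shared with FBS alone and 1.72% of those called in every list. Of the 83, 20 (24.1%, 15.4 to 34.7%) were on chromosome 19 and 14 (16.9%, 9.54 to 26.7%) on chromosome 1, against 9.33% (6.47 to 12.9%) and 14.3% (10.8 to 18.4%) of the 343 other CSS regions with such a background. On chromosome 19, the window from 36000001 to 37000000 alone held 24 vehicle-only regions, with a median background of 14.01. Regions of 1 stretch are not independent, and the intervals do not allow for this. Among the 158 strongest vehicle-only regions, 21 had a background of at least 2. Of all vehicle-only regions, 2.18% had a background of 2 to under 5 and 0.755% one of 5 or more. A background of at least 2 was thus more frequent among the strongest. For the 7227 vehicle-only regions above the genome-wide level, the median pileup was 26.7% of the reads in the 10 kb, against 28.9% in 20777 other CSS regions. This leaves out 34.2% of vehicle-only regions but 13.7% of the other CSS regions. In 5956 DHT-only regions it was 35.7% in their own list, where read density was lower, and it was not computed for other DHT regions.

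**Figure D4:**
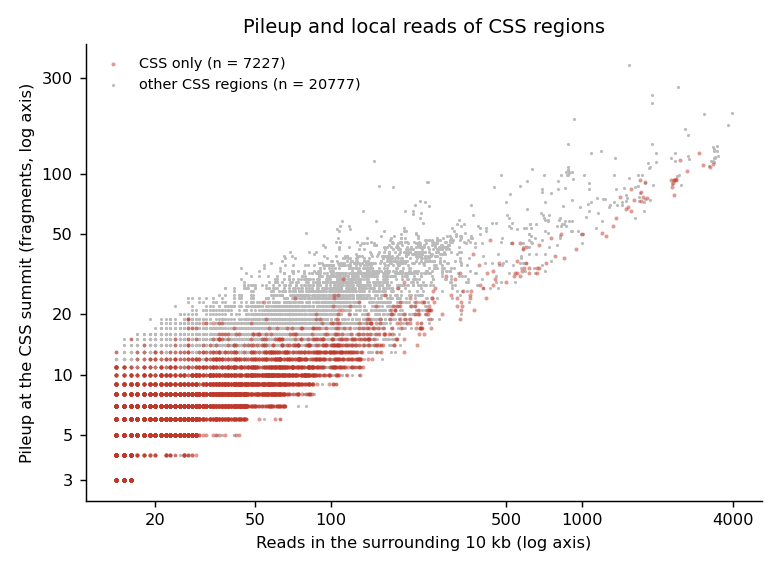
Pileup at the CSS summit (y axis, fragments, log scale) against the reads in the surrounding 10 kb (x axis, log scale) for regions above the genome-wide background, with vehicle-only regions in red drawn over the other CSS regions in grey. Vehicle-only regions lie mostly in the lower part of the cloud, and those at the far right, with up to 3338 reads, belong to the crowded set.

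Along the genome, vehicle-only regions were spread over every chromosome, with an excess on a few. Chromosome X held 475 of them (4.32%), against 2.73% of the other CSS regions, a ratio of 1.58 (exact interval 1.40 to 1.78). The ratio was 1.504 (1.31 to 1.72) on chromosome 16, 1.251 (1.12 to 1.40) on chromosome 19 and 1.24 (1.05 to 1.46) on chromosome 22. It was lowest on chromosome 9, at 0.869 (0.781 to 0.966), and its interval also lay below 1 on chromosomes 4 (0.902) and 11 (0.890). Thus 7 of 23 intervals excluded 1, without adjustment for testing 23 of them, and they cover counting error only. The member share of CSS regions was 41.9% on X, 40.7% on 16 and 28.4% on 9, around the 31.3% over all. Among CSS regions with a −log10 q of 5 or more, the ratio was 1.30 (0.998 to 1.67) on X and 0.989 (0.802 to 1.21) on 9, so both intervals then included 1, while 5 of 23 chromosome intervals still excluded it.

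No chromosome separated vehicle-only from DHT-only regions beyond its interval. Against DHT-only regions, 0 of 23 intervals excluded 1, and the ratios ran between 0.882 on chromosome 9 and 1.12 on chromosome 7. DHT-only regions had ratios of 1.45 (1.26 to 1.66) on X and 1.45 (1.24 to 1.70) on 16 over the other DHT regions. The share on X was higher in the sets without an FBS peak. X held 4.32% of vehicle-only regions, 4.31% of those with CSS and DHT peaks and 4.02% of DHT-only regions, but 2.40% of those with CSS and FBS peaks and 1.65% of those called in every list. The ratio on X of vehicle-only regions to those with CSS and DHT peaks but none in FBS was 1.003 (0.874 to 1.15). On chromosome 16 it was 1.24 (1.04 to 1.46), and on 22 it was 1.36 (1.10 to 1.69), the highest. For this ratio 8 of 23 intervals excluded 1, 5 above it and 3 below. The lack of an FBS peak is part of how both sets were chosen.

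**Figure D5:**
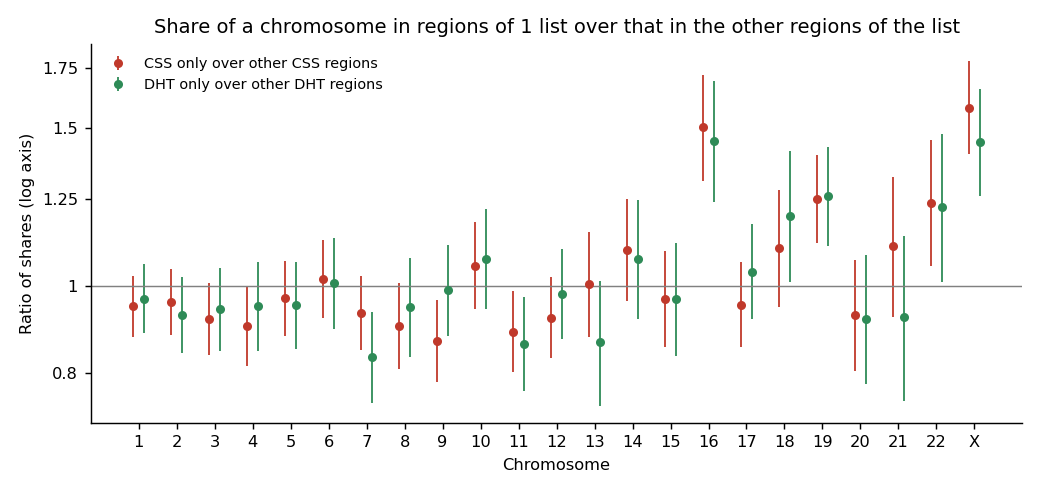
Share of each chromosome in vehicle-only regions over its share in the other CSS regions (red) and the same for DHT-only regions in the DHT list (green), as a ratio on a log axis with exact 95% intervals. The intervals of both colours lie wholly above 1 on chromosomes 16, 19, 22 and X.

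Vehicle-only regions were found in most windows of 1 Mb. Of 2887 windows with a summit of a CSS, DHT or FBS-only region, 2720 held at least 1 vehicle-only region, with a median of 3 and a highest number of 29. Another vehicle-only region lay within 10000 bp of 11.4% (10.8 to 12.0%) of them and within 100000 bp of 60.4%. For the less numerous DHT-only regions the shares were 7.27% (6.69 to 7.88%) and 48.7%, and for an equal number of vehicle-only regions, the strongest 7485, the share within 10000 bp was 8.12% (7.51 to 8.76%). In 433 windows with at least 20 CSS regions, the vehicle-only share ran between 0% and 70.0%, with a median of 28.6%. The 0% window lay on chromosome 8 from 86000001 to 87000000 (0 of 20) and the 70.0% window on chromosome 16 from 4000001 to 5000000 (14 of 20).

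The window richest in vehicle-only regions was on chromosome 5 from 140000001 to 141000000, with 29 of them beside 18 other CSS regions. It held 4 DHT-only regions, so the ratio of shares, vehicle-only over DHT-only, was 4.94 (1.73 to 19.3), and it was 3.53 (1.90 to 6.75) over the other CSS regions. These 29 regions lay between 140032871 and 140892462 and were weak, with pileups of 4 to 14 and a median −log10 q of 3.70, against 9.67 in the other CSS regions of the window. A DHT peak lay within 5 kb of 4 of the 29 and an FBS peak within 5 kb of 11. Both counts are close to the shares over all vehicle-only regions, 15.3% and 38.03%. The window was the richest of 2887, so its ratio is a description of an extreme.

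The windows next in number, each with 24, were both on chromosome 19 and differed in kind. From 2000001 to 3000000, the vehicle-only regions had a median pileup of 8 and a median background of 0.936, with 13 other CSS and 9 DHT-only regions beside them. From 36000001 to 37000000, the median pileup was 39 and the median background 14.01 (highest 45.2), so this window overlaps the read-crowded set. That set held 20 vehicle-only regions on all of chromosome 19, so not all 24 of the window belong to it. Of the 24, 11 had a DHT peak within 5 kb, against 15.3% of all vehicle-only regions. Towards the ends of the long arms, 8.39% (7.88 to 8.92%) of vehicle-only regions lay within 5 Mb of the last region of their chromosome, against 6.29% (5.99 to 6.61%) of the other CSS regions and 6.89% (6.33 to 7.49%) of DHT-only regions. Among the 158 strongest vehicle-only regions the share was 5.70% (2.64 to 10.5%).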

How the data were processed

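ZBTB7A ChIP-seq of VCaP cells was represented by 3 narrowPeak lists, 1 each for DHT, FBS and CSS, named in the labels. The submitters' processing notes name MACS2 (2.0.10.20131216), SAMtools (0.1.18) and BWA (0.7.2-r351), with the build hg19 (GRCh37). The sources used here do not give the control, the q threshold, duplicate handling or the way libraries were combined, nor whether libraries came from separate cultures. The deposited values of each peak are a fold enrichment ratio, a −log10 p-value, a −log10 q-value, a score and a summit position (other unit). The authors' score was not used further, and fold and q were used within a list only.

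Peaks overlapping by at least 1 bp were merged (the counts equalled those of bedtools 2.31.1), and a region takes the values of its peak with the highest −log10 q. Pileup k and background b were solved from fold = (k + 1)/(b + 1) and p = P(X > k) for a Poisson mean b, within the rounding of the deposited decimals; 100% of 4909 simulated pileups were recovered. These are the formulas of MACS2 with its pseudocount of 1. In each list the reads of the 10 kb window were unscaled whole numbers (tolerance 0.01) and never fewer than the pileup. These backgrounds thus show no scaled control library, and fold enrichment and q should not be read as corrected by a control. Shares have exact Clopper-Pearson 95% intervals, differences Newcombe intervals and ratios of shares exact conditional binomial intervals, all for counting error only. Regions named are the 10 of highest −log10 q, 5 of highest fold enrichment, 3 widest, 3 weakest, 3 strong ones nearest a DHT peak, and extreme windows and chromosomes. Members and measures were chosen with earlier results of these data known, and pileups, local background, long-arm ends and the edge of the overlap rule were added after seeing the data. Gene lists, start sites and motifs needed an hg19 reference and were not run. Computation used scipy 1.17.1, pandas 2.3.3 and numpy 2.4.6 under Python 3.11.15, with matplotlib 3.10.9 for plots.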

Additional observations from a re-analysis of the deposited data

Results flagged for a closer look

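Regions called with vehicle alone also occurred on sequences outside chromosomes 1 to 22 and X, which the comparisons above do not use. There were 264 on alternate haplotypes of the assembly (46.2% of the CSS regions there), 118 on chromosome Y (40.8%) and 79 on unplaced or unlocalized contigs (37.1%), each above a count of 3. The highest local background was 94.5 on the contigs and 36.9 on chromosome Y.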

How the results depend on the processing

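Of the values recomputed with another choice, 39 moved outside their interval or by over 1.5 times and 13 did not. Of these values, 0 carry a test. A turn in direction was looked for only in the ratios on chromosomes X and 9, and 0 of those turned. The number of vehicle-only regions and their share of CSS regions were 9062 and 27.4% with peaks within 500 bp merged, 6068 and 19.1% within 5000 bp, 17356 and 47.3% for peaks without a 50% overlap of both, 19033 and 51.9% without a summit within 100 bp, 2162 and 12.5% at a CSS −log10 q of at least 5, 158 and 3.03% at 10, 4626 and 26.6% with a −log10 q of at least 5 in each list, and 7240 and 31.9% with a fold enrichment of at least 5. They were 10995 and 34.4% with equal numbers of top peaks, 15790 and 44.1% against DHT only, 20257 and 56.8% against FBS only, and 10667 and 32.4% with a background under 2. The median rank was 28.0 by fold enrichment and 26.7 with peaks within 500 bp merged. A DHT peak was near 7.35%, 9.42% and 26.5% of vehicle-only regions within 500, 1000 and 10000 bp, and an FBS peak near 11.7%, 17.1% and 57.6%. Another vehicle-only region lay within 50000 bp of 40.7%, within 100000 bp of 60.4%, and within 10000 bp of 8.12% in equal numbers. The ratio on chromosome X was 1.30 (0.998 to 1.67) for CSS −log10 q values of 5 or more, 1.07 against DHT-only regions and 1.003 against CSS and DHT without FBS; that on chromosome 9 was 0.989 for −log10 q values of 5 or more. Against DHT-only regions, 0 of 23 chromosome intervals excluded 1. A stricter cut on CSS regions alone leaves fewer vehicle-only regions by construction. The cuts made in every list, which gave 4626 and 7240 regions, also drop DHT and FBS peaks and so can add vehicle-only regions. Their lower counts are therefore not fixed by construction. Shares with a neighbour cannot fall at a longer distance. Leaving out the DHT or FBS list cannot lower the number of vehicle-only regions. The median rank had an interval of no width (27.4 to 27.4), so any other value counted as moved. The count of 39 is therefore no measure of robustness, and the cause of other changes was not tested. No paired analysis was possible because each condition has a single list in which its libraries are joined, which also kept any library from being left out. Start sites and motifs were not run, for want of an hg19 reference. The quartiles of the pileup in vehicle-only regions were 5 and 8 fragments, which limits how firmly a missing call in another list can be read.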
